A study of Mus musculus with 14 samples.

Results

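Chst15, Tor1aip2 and D10Wsu102e are 3 genes whose change with the METTL3 inhibitor STM2457 differed between mouse stem cell lines, and Tor1aip1 is the paralog and genome neighbour of Tor1aip2, set beside it for contrast. These 4 genes were taken from the 55416 identifiers of the count table, and all 4 were among the 18430 genes with enough counts to be tested. The first 3 were selected on these same libraries, chosen by the measured difference between lines in their response to STM2457, for which they passed the test. Their responses are therefore given below as a description, with standard errors (SE) and without a test. Differences between lines in the solvent alone were not the contrast used in that choice and are tested, although the same DMSO libraries enter both. The 4 genes are Chst15 (ENSMUSG00000030930, on chromosome 7), Tor1aip2 (ENSMUSG00000050565, chromosome 1), D10Wsu102e (ENSMUSG00000020255, chromosome 10) and Tor1aip1 (ENSMUSG00000026466, chromosome 1).

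The series holds 14 RNA libraries from 3 mouse stem cell lines, all of a hybrid background of Mus molossinus and Mus musculus. The STM2457 groups received 50 µM of the inhibitor for 12 h, and the DMSO groups are the controls. Extraembryonic endoderm stem cells (XEN, genotype WT, grown in DMEM with serum) gave 3 libraries with STM2457 and 3 with DMSO. Trophoblast stem cells (TSC, genotype WT, grown in fibroblast-conditioned medium with Fgf4) gave 2 and 2, as did epiblast stem cells (EpiSC, grown with Fgf2 and Activin A). The EpiSC of both arms carry the genotype XmolXmus-ΔTsix. Each kind of cell is 1 line, so the cell type cannot be told apart from the line, its genotype and its medium. No label states whether the replicates came from separate cultures. Standard errors and p-values therefore describe the spread among these libraries, which may be technical. Both come from 1 model of all 6 groups, in which each gene has 1 estimate of spread for all 3 lines. An SE given for 1 line thus need not reflect the replicates of that line alone. The model takes no account of replicate numbers, although same-numbered XEN libraries deviated together.

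METTL3 is the catalytic subunit of the complex that writes N6-methyladenosine (m6A) on messenger RNA, mostly within a short motif whose core is GGAC, and the mark is best known for shortening the life of the transcripts that carry it. STM2457 blocks the enzyme's active site, so the level of Mettl3 RNA is no check of the inhibition. The products of Tor1aip1 (LAP1, in the inner nuclear membrane) and Tor1aip2 (LULL1, in the endoplasmic reticulum) activate the torsins, ATPases of the nuclear envelope and endoplasmic reticulum that have no activity of their own without such a partner. Chst15 encodes a sulfotransferase of the Golgi that adds a second sulfate to chondroitin chains and so makes chondroitin sulfate E. D10Wsu102e is the mouse counterpart of NOPCHAP1, which in human cells helps to load the protein NOP58 during assembly of box C/D small nucleolar ribonucleoproteins.

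The promoters of the genes that moved together in XEN are shown first, from RefSeq on build GRCm38.p6, each 300 bases long and reaching shortly past an annotated start. All 4 genes had at least 1 promoter in that table. The fourth start site of Tor1aip2 (chr1:156040590-156040889, plus strand) and the start site of D10Wsu102e (chr10:83359971-83360270, plus strand) each hold 1 copy of CACGTG, the E-box core, which reads the same on both strands and is set in capitals. Of the 5 Tor1aip2 start sites in the table, the first 3 hold no copy, and the fifth overlaps the fourth and holds the same one. The fourth was picked for display because it holds the motif.
Tor1aip2 start site 4: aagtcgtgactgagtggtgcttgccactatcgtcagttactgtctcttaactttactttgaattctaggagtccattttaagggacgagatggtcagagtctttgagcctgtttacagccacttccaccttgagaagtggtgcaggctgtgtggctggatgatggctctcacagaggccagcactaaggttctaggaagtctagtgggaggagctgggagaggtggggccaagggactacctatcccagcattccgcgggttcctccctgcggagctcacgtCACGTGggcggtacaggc
D10Wsu102e start site 1: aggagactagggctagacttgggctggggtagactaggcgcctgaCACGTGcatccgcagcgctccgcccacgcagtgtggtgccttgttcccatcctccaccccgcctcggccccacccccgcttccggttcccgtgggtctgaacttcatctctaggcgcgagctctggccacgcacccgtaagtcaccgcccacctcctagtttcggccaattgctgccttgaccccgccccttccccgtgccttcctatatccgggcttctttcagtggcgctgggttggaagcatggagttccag
This motif occurs in 7.15% of the 32851 promoters of that length in the table, so a match is a description of these letters and not of a bound factor. Of 4 other motifs searched on both strands, GGGCGG (in 35.7% of the promoters) occurs 1 time in the Tor1aip2 window, sharing 1 base with CACGTG, and 3 times in the D10Wsu102e window. CCAAT (37.4%) occurs 1 time in the D10Wsu102e window and not in that of Tor1aip2. TATAAA (13.6%) and the core of the interferon-stimulated response element (3.44%) occur in neither.

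Tor1aip2 and Tor1aip1 start close to each other on opposite strands, and their promoters are shown because the neighbours differed in response. Here CG pairs are in capitals, in the first start site of Tor1aip2 (chr1:156035414-156035713, plus strand) and the first of Tor1aip1 (chr1:156036431-156036730, minus strand).
Tor1aip2 start site 1: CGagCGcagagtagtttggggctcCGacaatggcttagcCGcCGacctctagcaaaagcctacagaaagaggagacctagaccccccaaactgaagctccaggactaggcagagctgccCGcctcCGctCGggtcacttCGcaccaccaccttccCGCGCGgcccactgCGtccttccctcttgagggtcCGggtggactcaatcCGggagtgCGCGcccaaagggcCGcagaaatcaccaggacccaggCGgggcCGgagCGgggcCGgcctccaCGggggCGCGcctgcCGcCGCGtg
Tor1aip1 start site 1: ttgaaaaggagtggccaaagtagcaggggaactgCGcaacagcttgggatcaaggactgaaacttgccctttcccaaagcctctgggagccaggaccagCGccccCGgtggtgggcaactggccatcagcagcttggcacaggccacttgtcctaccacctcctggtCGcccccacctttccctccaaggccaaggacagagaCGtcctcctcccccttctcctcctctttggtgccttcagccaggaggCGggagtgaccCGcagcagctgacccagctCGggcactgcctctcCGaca
The Tor1aip2 window holds 28 CG pairs and the Tor1aip1 window holds 9, against a median of 7 over all 32851 promoters. The contrast depends on the start site, since the fourth site of Tor1aip2 holds 9 CG pairs and the second of Tor1aip1 holds 1.

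The XEN libraries held 6826496 to 10024628 counts each, those of TSC 17909934 to 20354242 and those of EpiSC 18640099 to 21097380. Mitochondrial ribosomal RNA took 12.0% to 16.0% of counts in XEN and at most 0.0505% in the other lines, so depth and RNA makeup go with the line and cannot be told apart from it. Each line carried its own markers. The 7 markers of XEN summed to 2721 to 3114 CPM (counts scaled to the library total after TMM adjustment) in XEN, with Dab2 at 718 CPM with STM2457 and 717 CPM in DMSO. The 7 markers of TSC summed to 2818 to 2997 CPM in TSC, led by Hand1. The 7 markers of EpiSC summed to 1155 to 1236 CPM in EpiSC with STM2457 and 1337 to 1387 CPM in DMSO, led by Pou5f1. Fibroblast markers, 6 genes, summed to 46.3 to 48.4 CPM with STM2457 and 53.0 to 59.5 CPM in DMSO in EpiSC, and to 17.9 to 20.1 CPM with STM2457 and 14.6 to 15.5 CPM in DMSO in TSC. The part of these shifts in the responses below was not tested. The TSC also held 756 to 829 CPM of the EpiSC list, nearly all from Sox2 and Utf1. Both of these were higher in TSC than in EpiSC. In DMSO Sox2 averaged 277 CPM in TSC and 80.3 CPM in EpiSC, and Utf1 524 CPM in TSC and 285 CPM in EpiSC. Mettl3 stood at 46.5 ± 4.85 CPM with STM2457 and 50.9 ± 5.87 CPM in DMSO in XEN (SD, n = 3 each).

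Tor1aip2, the torsin activator of the endoplasmic reticulum, had its largest response in XEN and its smallest in EpiSC. In XEN it had 887, 883 and 1041 CPM with STM2457, against 403, 458 and 413 CPM in DMSO. Every STM2457 library of XEN lay above every DMSO library, and the log2 fold change was 1.14 ± 0.0953 (SE), which is 2.21-fold.

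In TSC the STM2457 libraries had 276 and 266 CPM of Tor1aip2, against 188 and 184 CPM in DMSO, a log2 fold change of 0.54 ± 0.116. In EpiSC they had 116 and 127 CPM, against 114 and 110 CPM in DMSO, a log2 fold change of 0.12 ± 0.116. The arms did not overlap in either line, though in EpiSC the log2 fold change was no larger than about its SE. Between replicates Tor1aip2 varied little, with a pooled SD of 0.09 on the log2 scale against a median of 0.25 over all tested genes.

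Tor1aip1, the activator of the inner nuclear membrane, had small positive log2 fold changes in each line. In XEN it had 88.0, 72.5 and 90.3 CPM with STM2457, against 75.5, 68.8 and 82.0 CPM in DMSO. The arms overlapped there, and the log2 fold change was 0.15 ± 0.102. In TSC it had 38.9 and 36.7 CPM with STM2457, against 28.7 and 29.5 CPM in DMSO, a log2 fold change of 0.38 ± 0.124. In EpiSC it had 39.2 and 37.5 CPM with STM2457, against 33.6 and 33.0 CPM in DMSO, a log2 fold change of 0.20 ± 0.124. In TSC and EpiSC every STM2457 library was above every DMSO library. In XEN the STM2457 library was the higher one in each of the 3 same-numbered pairs, and leaving out 1 library at a time moved the log2 fold change of Tor1aip1 in XEN between 0.088 (without DMSO replicate 2) and 0.24 (without STM2457 replicate 2).

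**Figure D1:**
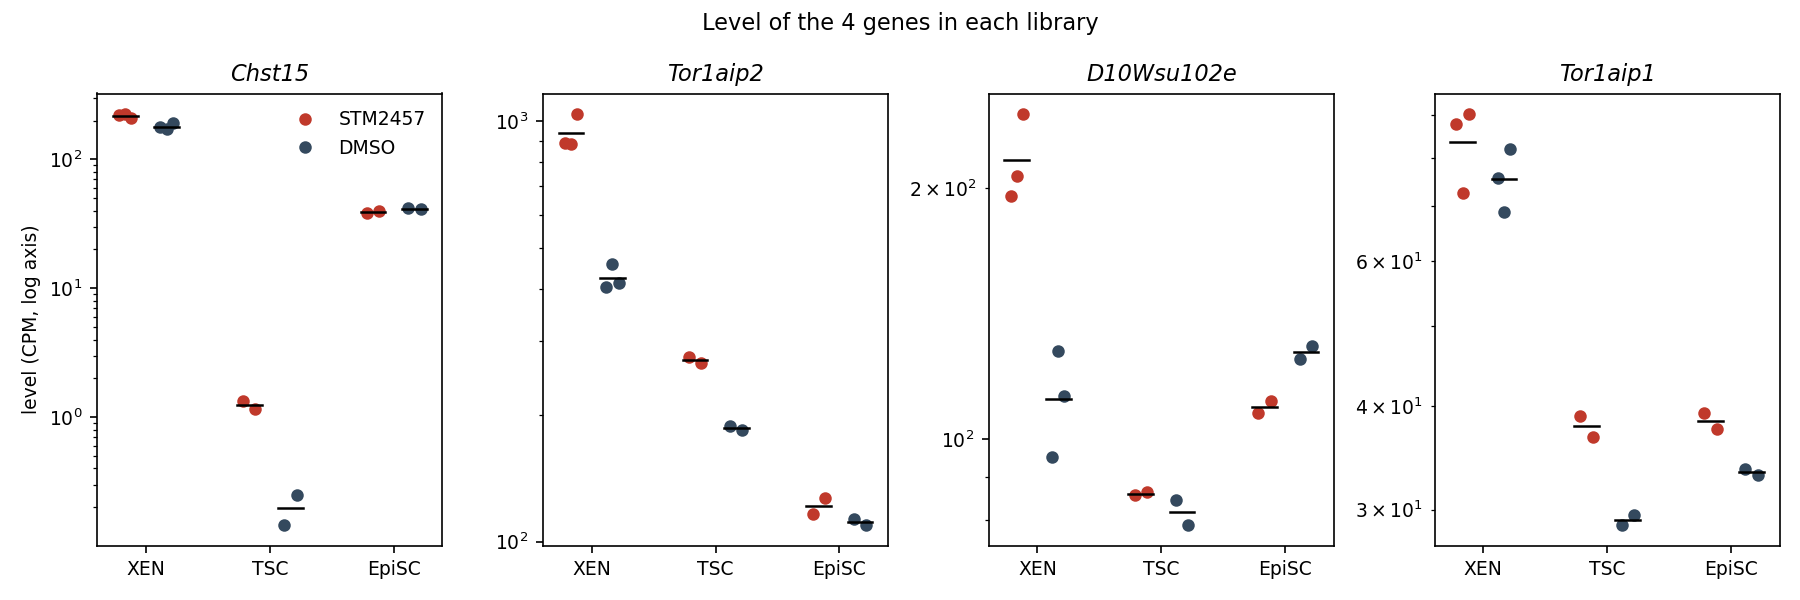
Level of Chst15, Tor1aip2, D10Wsu102e and Tor1aip1 in each library, in CPM on a log axis, by line, with STM2457 libraries in red left of DMSO libraries in blue and a bar at the mean. The arms stand furthest apart for Tor1aip2 and D10Wsu102e in XEN and for Chst15 in TSC, and they overlap for Tor1aip1 in XEN.

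Setting one gene against the other within each library removes any effect of scaling. Tor1aip2 had 10.1, 12.2 and 11.5 counts per count of Tor1aip1 in the STM2457 libraries of XEN, against 5.33, 6.65 and 5.04 in DMSO. The log2 ratio averaged 3.49 ± 0.140 with STM2457 and 2.49 ± 0.212 in DMSO (SD, n = 3 each), a difference of 0.99. The XEN arms did not overlap.

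In TSC the log2 ratio averaged 2.84 ± 0.0234 with STM2457 and 2.68 ± 0.0473 in DMSO (SD, n = 2 each), and the arms did not overlap. In EpiSC it averaged 1.66 ± 0.134 with STM2457 and 1.74 ± 0.0181 in DMSO (SD, n = 2 each), and the arms overlapped. These are ratios of counts and include the difference in gene length. Per kb of annotated exon, Tor1aip2 stood at 101.6 CPM per kb with STM2457 and 46.1 CPM per kb in DMSO in XEN, and Tor1aip1 at 15.5 CPM per kb with STM2457 and 14.0 CPM per kb in DMSO.

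**Figure D2:**
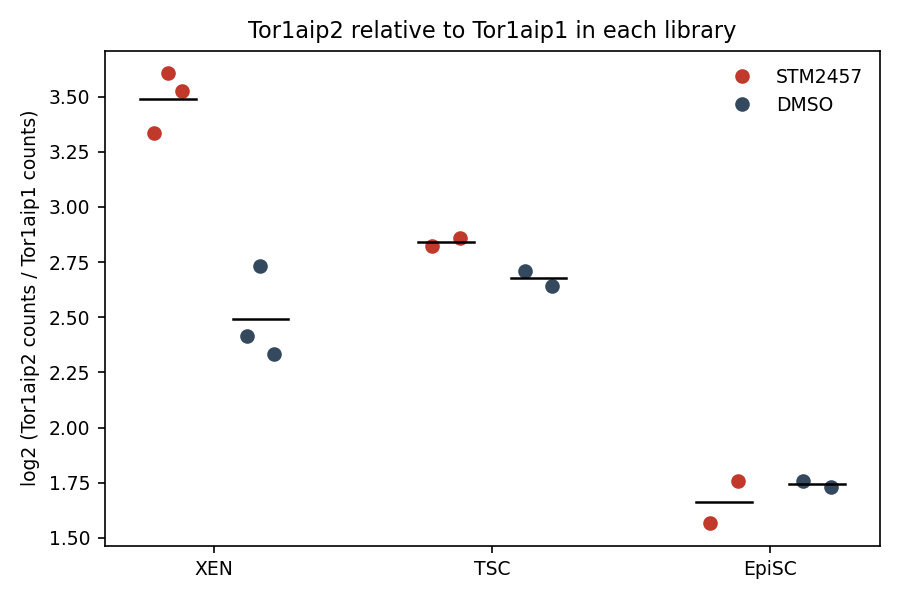
The log2 ratio of Tor1aip2 counts to Tor1aip1 counts in each library, by line, with STM2457 libraries in red left of DMSO libraries in blue and a bar at the mean. The XEN libraries with STM2457 average 3.49, against 2.49 in DMSO, while the EpiSC arms overlap.

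D10Wsu102e, the counterpart of the NOP58 loading factor, had its largest response in XEN and a negative one in EpiSC. In XEN it had 196, 206 and 245 CPM with STM2457, against 95.1, 128 and 113 CPM in DMSO. The lowest STM2457 library was above the highest DMSO library, and the log2 fold change was 0.95 ± 0.111, or 1.93-fold.

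In TSC it had 85.6 and 86.3 CPM with STM2457, against 84.4 and 78.8 CPM in DMSO, a log2 fold change of 0.07 ± 0.133. The TSC arms did not overlap, though the change was smaller than its SE. That SE draws on the spread in all 3 lines. The SD was 12.1% of the mean with STM2457 and 14.6% in DMSO in XEN, against 0.510% and 4.86% in TSC. It was 2.32% with STM2457 and 2.56% in DMSO in EpiSC. In EpiSC D10Wsu102e had 108 and 111 CPM with STM2457, against 125 and 129 CPM in DMSO, a log2 fold change of -0.22 ± 0.132. The EpiSC libraries with STM2457 were both below those in DMSO, the opposite order to XEN. Scaling to ribosomal protein genes in place of TMM kept the sign in EpiSC, at -0.09.

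Chst15, the chondroitin sulfate E sulfotransferase, was highest in XEN and close to absent from TSC. In XEN it had 219, 225 and 208 CPM with STM2457, against 177, 171 and 191 CPM in DMSO. The arms did not overlap, and the log2 fold change was 0.27 ± 0.0864, or 1.21-fold. In EpiSC it had 38.3 and 39.5 CPM with STM2457, against 42.1 and 41.1 CPM in DMSO, a log2 fold change of -0.10 ± 0.108. Both STM2457 libraries of EpiSC were below both DMSO libraries under TMM scaling, whereas scaling to ribosomal protein genes gave 0.03, so the sign depends on the scaling.

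In TSC the largest log2 fold change of the 4 genes, 2.60 ± 0.306, came from few reads. Chst15 had 26 and 26 counts with STM2457, against 3 and 5 counts in DMSO, or 1.33 and 1.15 CPM against 0.145 and 0.251 CPM. Summed over the replicates, 52 counts with STM2457 stood against 8 in DMSO, a ratio of 6.25 after scaling. Chst15 was chosen on its response in these libraries, so this ratio is a description without a test. The TSC arms did not overlap, yet the level with STM2457 was 0.570% of that in XEN with STM2457, against 0.110% in DMSO.

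Transcripts typical of XEN were also somewhat higher in those TSC libraries. The 7 XEN markers summed to 40.2 and 40.9 CPM in TSC with STM2457, against 29.6 and 33.8 CPM in DMSO, and none was at 0. Of the 7, 6 had a positive log2 fold change in TSC. In edgeR 0 passed an adjusted p under 0.05, where 0.966% of tested genes did, so 0 of 7 is near that share. Of the 7, 4 were under an unadjusted p of 0.05, and 1 was among the 959 genes that DESeq2 called in TSC. Dab2, for example, stood at 1.27 CPM with STM2457 and 0.467 CPM in DMSO. Sox17, at 278 CPM in XEN in DMSO, had 4 counts in TSC with STM2457 and 4 in DMSO. The XEN marker sum was also higher in EpiSC, at 22.7 to 22.8 CPM with STM2457 against 18.3 to 19.0 CPM in DMSO. There Dab2 had 15.4 CPM with STM2457 and 10.8 CPM in DMSO, and Foxa2 was higher too. Gata4, Gata6, Sox17, Sox7 and Pdgfra had lower means with STM2457 in EpiSC. The part of these transcripts in the Chst15 counts was not tested, and in bulk RNA more cells of a type and more RNA per cell cannot be told apart.

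**Figure D3:**
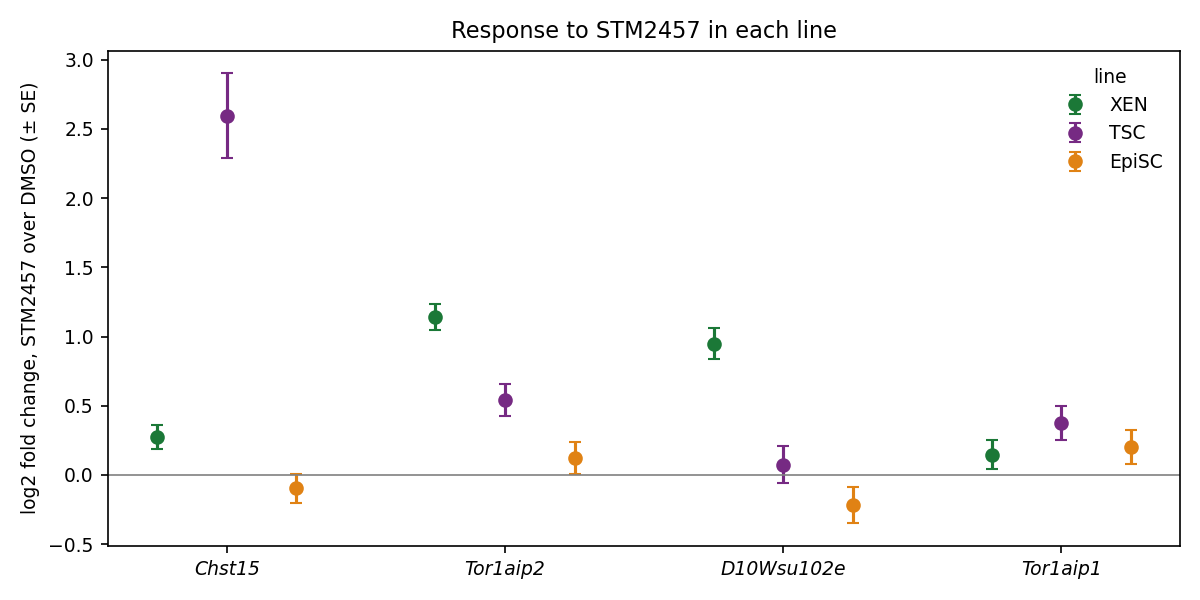
Log2 fold change of STM2457 over DMSO for the 4 genes in XEN (green), TSC (purple) and EpiSC (orange), with bars of ± SE. Chst15 stands at 2.60 in TSC, 0.27 in XEN and -0.10 in EpiSC. Tor1aip2 and D10Wsu102e are highest in XEN at 1.14 and 0.95, and the 3 lines of Tor1aip1 lie between 0.15 and 0.38.

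The differences between lines, on which the first 3 genes were chosen, were as follows. For Chst15 the log2 response in XEN minus that in TSC was -2.32 ± 0.323, and TSC minus EpiSC was 2.69 ± 0.327. For Tor1aip2, XEN minus EpiSC was 1.02 ± 0.150 and XEN minus TSC was 0.60 ± 0.149. D10Wsu102e gave 1.17 ± 0.172 for XEN minus EpiSC and 0.87 ± 0.173 for XEN minus TSC.

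For Tor1aip1, which was added as a paralog, XEN minus TSC was -0.23 ± 0.161 and XEN minus EpiSC was -0.06 ± 0.160. The sign of XEN minus EpiSC for Tor1aip1 turned when 1 library was left out, with a range of -0.12 to 0.035 and positive values without XEN STM2457 replicate 2 and without XEN DMSO replicate 3. Over all tested genes the test called 1 gene for XEN minus TSC (0.00543%), 2 for XEN minus EpiSC (0.0109%) and 1 for TSC minus EpiSC (0.00543%), and these calls are the choice itself. Leaving out 1 library at a time gave 0 to 1, 0 to 4 and 0 to 2 genes in the same order, and scaling to ribosomal protein genes gave 0 in each, where DESeq2 gave 19, 45 and 25.

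In DMSO the starting levels of the 4 genes differed between lines, as did those of most genes. In TSC minus XEN all 4 genes passed an adjusted p under 0.05 in edgeR's quasi-likelihood test with Benjamini-Hochberg adjustment, where 72.5% of tested genes did. Chst15 was lower in TSC than in XEN by a log2 difference of -9.77 ± 0.190 (adjusted p = 9.04e-16), on 8 counts in TSC. Tor1aip2 differed by -1.19 ± 0.110 (adjusted p = 4.97e-08) and Tor1aip1 by -1.37 ± 0.119 (adjusted p = 2.27e-08), so both torsin activators were lower in TSC. D10Wsu102e differed by -0.45 ± 0.124 (adjusted p = 0.00354), a call lost without the second DMSO library of TSC (log2 difference -0.37, adjusted p = 0.0582).

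In EpiSC minus XEN, 3 of the 4 genes passed the same test, where 71.7% of tested genes did. The log2 differences were -2.11 ± 0.105 for Chst15 (adjusted p = 2.15e-11), -1.93 ± 0.113 for Tor1aip2 (adjusted p = 1.82e-10) and -1.18 ± 0.118 for Tor1aip1 (adjusted p = 1.32e-07). All 3 were thus lower in EpiSC than in XEN. D10Wsu102e did not pass, at 0.18 ± 0.122 (adjusted p = 0.183). It passed without the second DMSO library of XEN (0.28, adjusted p = 0.0354), and with scaling to ribosomal protein genes it passed with the opposite sign (-0.65, adjusted p = 0.00661).

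In EpiSC minus TSC, 3 of the 4 genes passed, where 54.4% of tested genes did. Chst15 was higher in EpiSC by 7.66 ± 0.198 (adjusted p = 3.75e-14) and D10Wsu102e by 0.64 ± 0.133 (adjusted p = 0.000600), and Tor1aip2 was lower by a log2 difference of -0.74 ± 0.116 (adjusted p = 4.10e-05). Tor1aip1 did not pass under TMM, at 0.19 ± 0.125 (adjusted p = 0.207), and passed with scaling to ribosomal protein genes (0.48, adjusted p = 0.0143). With ribosomal scaling the median tested gene shifted by -1.04 for TSC minus XEN, -0.76 for EpiSC minus XEN and 0.27 for EpiSC minus TSC, so the TMM differences above are relative to the median gene. It shifted the responses by -0.05 in XEN, 0.11 in TSC and 0.12 in EpiSC.

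The 4 genes did not share one relation between response and starting level. Tor1aip2 had the same order of lines by DMSO level and by response, XEN over TSC over EpiSC. Chst15 had its largest log2 response in TSC, where it started lowest. Tor1aip1 did too by its means, but that order was not settled. For Tor1aip1, EpiSC minus TSC in DMSO did not pass the test under TMM (0.19 ± 0.125). Its response in TSC minus that in EpiSC was 0.17 ± 0.175, no larger than its SE. D10Wsu102e had its largest response in XEN, and its place in the order by DMSO level was not settled. Its mean was highest in EpiSC, but EpiSC minus XEN did not pass the test and the highest XEN library, at 128 CPM, lay between the EpiSC libraries, at 125 and 129 CPM. With scaling to ribosomal protein genes D10Wsu102e started highest in XEN, the line of its largest response. Over all tested genes, 45.9% had the largest response in the line lowest in DMSO and 24.3% in the line highest in DMSO. The DMSO libraries enter both the starting level and the response, which ties the measures together.

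The spread of the line means was narrower with STM2457 for Chst15 and Tor1aip1 and wider for Tor1aip2 and D10Wsu102e. The range of the 3 line means of log2 CPM (prior count 2) was 7.31 with STM2457 and 9.11 in DMSO for Chst15, and 1.14 with STM2457 and 1.36 in DMSO for Tor1aip1. It was 2.94 with STM2457 and 1.93 in DMSO for Tor1aip2, and 1.32 with STM2457 and 0.64 in DMSO for D10Wsu102e. The range was narrower with STM2457 for 54.4% of tested genes. For the first 3 genes the change in range is built from the responses on which they were chosen, so it is no separate result. For Tor1aip2 the range changed by 1.02, and its response in XEN minus that in EpiSC was 1.02 ± 0.150. The prior count also narrows the DMSO range of Chst15, which rests on 8 counts in TSC.

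On the linear scale the order of the lines changes for Chst15 and Tor1aip1. The Chst15 mean with STM2457 minus that in DMSO was 37.4 CPM in XEN, 1.04 CPM in TSC and -2.72 CPM in EpiSC, so the line of the largest log2 response was not that of the largest gain in transcripts. For Tor1aip2 the differences were 512 CPM in XEN, 84.7 CPM in TSC and 9.93 CPM in EpiSC, and for D10Wsu102e 104, 4.34 and -17.7 CPM. Tor1aip1 differed by 8.19, 8.69 and 5.06 CPM in the same lines, so XEN stood above EpiSC, whereas by log2 fold change EpiSC stood above XEN.

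**Figure D4:**
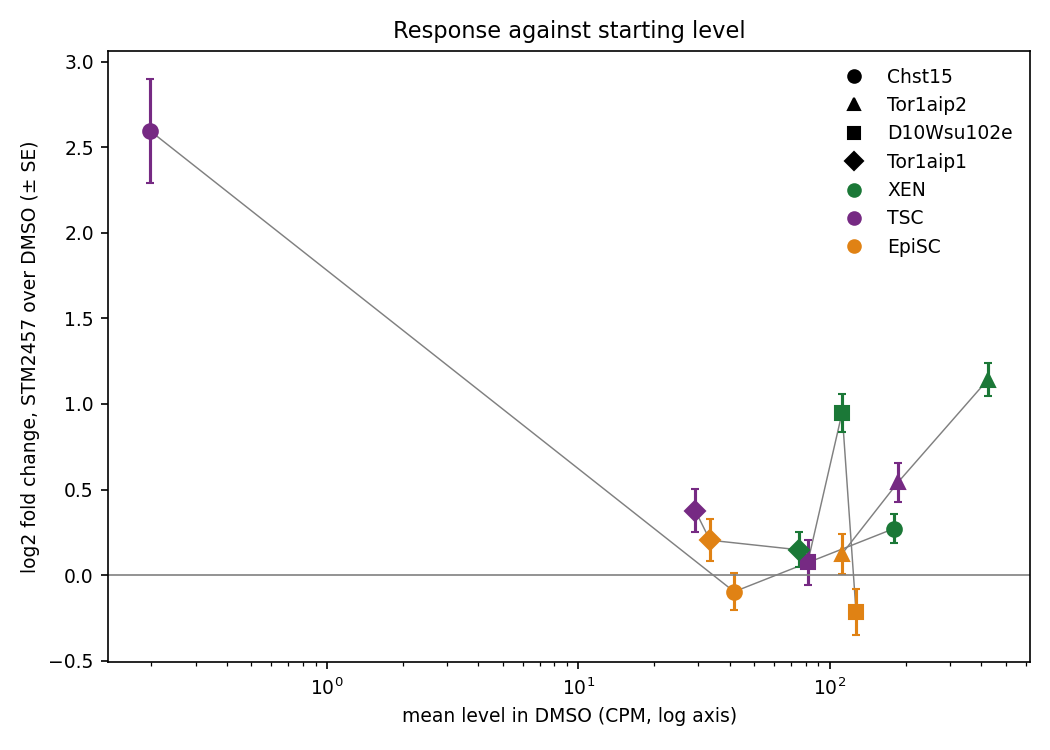
Log2 fold change of STM2457 over DMSO (± SE) against the mean DMSO level in CPM on a log axis, with 1 point per gene and line, the lines of a gene joined. Chst15 in TSC stands apart at a level of 0.198 CPM and a log2 fold change of 2.60, and the Tor1aip2 points climb with level while those of Tor1aip1 do not.

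Of the torsins, Tor1a, Tor3a and Tor4a rose with STM2457 in XEN. Of 23 other genes of the torsins and inner nuclear envelope, 3 rose and 1 fell in XEN, where 4.15% of tested genes passed, 3.07% higher and 1.07% lower, and the list's median log2 fold change was 0.05 against 0.00 for all tested genes. Tor1a rose by 0.65 ± 0.104 (adjusted p = 0.00209), Tor3a by 0.55 ± 0.0900 (adjusted p = 0.00237) and Tor4a by 0.94 ± 0.134 (adjusted p = 0.000935). Lmna, which encodes lamins A and C, fell by 0.54 on the log2 scale (adjusted p = 0.00664). Tor1b, the closest relative of Tor1a, had a log2 fold change of 0.05 ± 0.110.

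In CPM, Tor1a averaged 35.9 ± 2.44 with STM2457 and 22.9 ± 0.930 in DMSO in XEN (SD, n = 3 each). The 4 calls of the list became 8 with the replicate number as a block and 1 (Tor4a) with scaling to ribosomal protein genes, and 0 were left in a fit of the XEN libraries alone. In TSC and EpiSC 0 of the 23 passed in edgeR, where 0.966% and 1.68% of tested genes did, so 0 of 23 is near those shares. Of the 23, 7 in TSC and 5 in EpiSC were under an unadjusted p of 0.05, and DESeq2 called 6 and 4. Tor1a stood at 0.45 ± 0.113 in TSC (adjusted p = 0.0720) and 0.16 ± 0.113 in EpiSC (adjusted p = 0.562), which is the order of lines seen for Tor1aip2. No torsin passed the test of a difference in response between lines.

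Several genes that build chondroitin and dermatan sulfate rose, and none of them fell. Of 26 genes besides Chst15, 25 were tested. In XEN 7 rose and 0 fell, where 4.15% of tested genes passed, 3.07% higher and 1.07% lower, with a median log2 fold change of 0.20. In TSC 2 rose and 0 fell, where 0.966% of tested genes passed, 0.836% higher and 0.13% lower, with a list median of 0.30. In EpiSC 5 rose and 0 fell, where 1.68% of tested genes passed, 1.28% higher and 0.402% lower, with a list median of 0.33. The median of all tested genes was 0.00 in each line.

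Chst12, among the sulfotransferases that make the 4-sulfated chondroitin on which the product of Chst15 acts, rose in all 3 lines. Its log2 fold change was 1.19 ± 0.132 in XEN (adjusted p = 0.000124), 1.14 ± 0.146 in TSC (adjusted p = 0.00134) and 0.88 ± 0.143 in EpiSC (adjusted p = 0.00575). In TSC it averaged 27.0 ± 0.669 CPM with STM2457 and 12.2 ± 0.701 CPM in DMSO (SD, n = 2 each). Dse, the epimerase that turns chondroitin into dermatan, rose by 0.77 ± 0.100 in XEN (adjusted p = 0.000440), 0.76 ± 0.118 in TSC (adjusted p = 0.00613) and 0.68 ± 0.116 in EpiSC (adjusted p = 0.00735). Chst12 and Dse belong to the 52 of 18430 tested genes that rose in all 3 lines.

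The other genes of the list that rose passed in 1 or 2 lines. In XEN these were Xylt2 (0.55) and Fam20b (0.49), which start the chain and phosphorylate its xylose, the polymerising factor Chpf (0.51), the dermatan sulfotransferase Chst14 (0.73) and Slc35b2 (0.49), the carrier of the sulfate donor into the Golgi. In EpiSC they were the synthase Chsy1 (0.52), Chpf (0.75) and Slc35b2 (0.49). Chst15 itself stood at -0.10 ± 0.108 in EpiSC.

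The chondroitin calls depended on the libraries and on the scaling. Leaving out any 1 EpiSC library left 0 calls in EpiSC, and leaving out either DMSO library of TSC left 0 in TSC. Scaling to ribosomal protein genes left 1 call in XEN, 1 in TSC and 2 in EpiSC, Chst12 among them in each line, and a fit of the XEN libraries alone left 1, also Chst12.

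**Figure D5:**
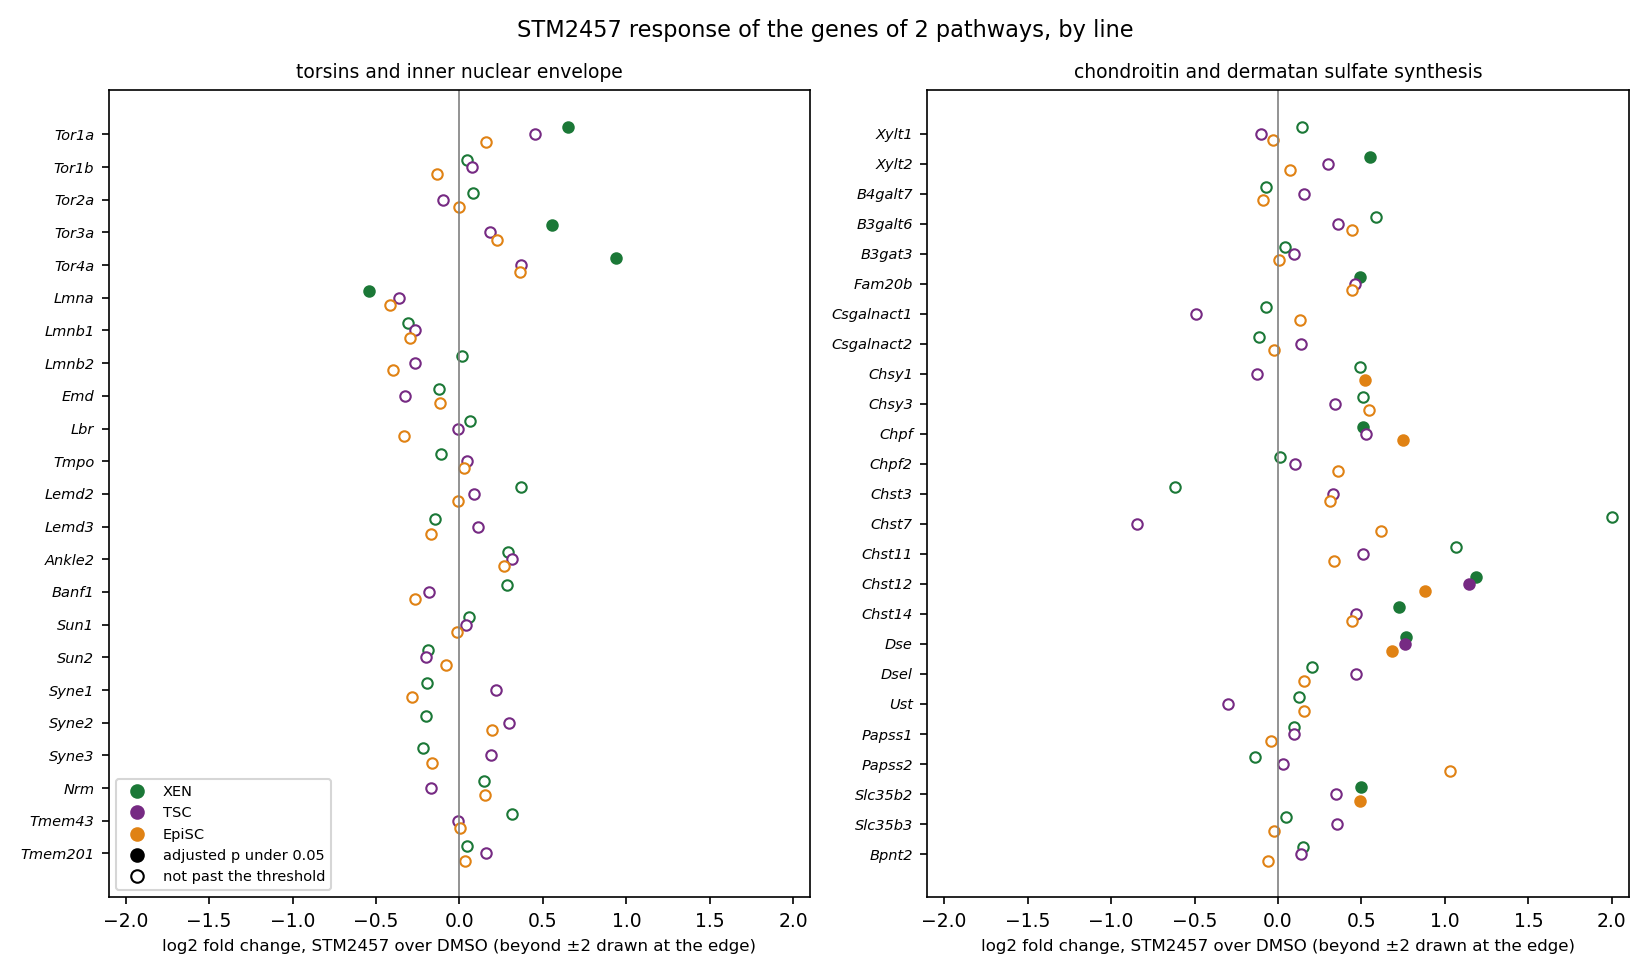
Log2 fold change of STM2457 over DMSO for each tested gene of the torsin and nuclear envelope list (left) and of the chondroitin and dermatan sulfate list (right) in XEN, TSC and EpiSC; filled points passed an adjusted p under 0.05. Filled points on the left are Tor1a, Tor3a, Tor4a and Lmna in XEN, and on the right Chst12 and Dse are filled in all 3 lines.

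Box C/D small nucleolar ribonucleoproteins are the particles that the human counterpart of D10Wsu102e helps to assemble. Of 13 of their factors, 0 passed in XEN, where 4.15% of tested genes did, and 0 in TSC, where 0.966% did, in edgeR, although 3 and 4 were under an unadjusted p of 0.05, and DESeq2 called 0 and 1. In EpiSC 2 of the 13 passed, where 1.68% of tested genes did. There the assembly factor Nufip1 rose by 0.57 ± 0.124 (adjusted p = 0.0283) and Pih1d1, of the R2TP chaperone complex, fell by 0.54 on the log2 scale (adjusted p = 0.0464). Leaving out any 1 library of TSC or EpiSC left 0 of these calls. Nop58 averaged 183 ± 22.1 CPM with STM2457 and 196 ± 36.6 CPM in DMSO in XEN (SD, n = 3 each), a log2 fold change of -0.10 ± 0.124. In a list of 17 genes of RNA ligation and end repair, which is not tied to the known role of D10Wsu102e, Clp1 rose by 0.48 ± 0.120 in XEN (adjusted p = 0.0332), and 0 genes passed in TSC and EpiSC in edgeR, although 4 and 6 were under an unadjusted p of 0.05, and DESeq2 called 3 and 3.

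No other neighbour of the 4 genes passed the test. These neighbours were Fgfr2 and Oat beside Chst15, Fam163a beside Tor1aip2, Cep350 beside Tor1aip1, and Slc41a2 and Aldh1l2 beside D10Wsu102e, and 0 of the 6 passed in any line in edgeR or in DESeq2. Over all tested genes edgeR called 4.15% in XEN, 0.966% in TSC and 1.68% in EpiSC, so 0 of 6 is near that share. Of the 6 neighbours, 0 in XEN, 0 in TSC and 1 in EpiSC were under an unadjusted p of 0.05 in edgeR. Fgfr2, the FGF receptor, averaged 216 ± 1.07 CPM with STM2457 and 202 ± 13.0 CPM in DMSO in TSC (SD, n = 2 each), a log2 fold change of 0.10 ± 0.281. A gene model of Fgfr2 spans the whole of Chst15 on the same strand in GENCODE release M21, with no shared exon bases. Aldh1l2, a mitochondrial folate enzyme, averaged 24.8 ± 13.4 CPM with STM2457 and 27.3 ± 11.5 CPM in DMSO in XEN (SD, n = 3 each).

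Annotated overlaps bear on how reads of the 4 genes are assigned. Tor1aip2 and Tor1aip1 share 699 exon bases at their starts on opposite strands, and the M21 model of D10Wsu102e shares 1056 exon bases with Aldh1l2 on the opposite strand. The M21 model of D10Wsu102e spans 128285 bp with 1 exon of 122802 bp, whereas RefSeq gives the gene 8615 bp. Neither the gene models nor the strand setting of the deposited counting is named in the labels, and the part of neighbouring transcripts in these counts was not tested. Gm10584, an antisense transcript over the start of Chst15, had 0 counts in TSC in both arms, and 0.430 ± 0.326 CPM with STM2457 and 0.894 ± 0.265 CPM in DMSO in XEN (SD, n = 3 each).

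Per kb of transcript, the GGAC core of the m6A motif was common in Chst15 and sparse in the torsin activators. The longest annotated transcript of Chst15 holds 31 GGAC sites in 5041 bases, or 6.15 per kb, more than in 85.3% of 14328 tested protein-coding genes. Tor1aip2 holds 17 sites, or 2.78 per kb, and Tor1aip1 holds 11, or 2.60 per kb, against a median of 4.07 per kb. The median number of sites was 13, so by number Tor1aip2 stood above the median and Tor1aip1 below it. No value is given for D10Wsu102e because of its long model. Methylation of these sites was not measured here.

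The genes most like each of the 4 across the 14 libraries were found by Pearson's r of log2 CPM, given as a description, since libraries of a line cluster and share depth. Chst15 was followed most closely by Pde1b (r = 0.993), Fzd4 (r = 0.992) and Rhpn2 (r = 0.989). Tor1aip2 was followed by Col20a1 (r = 0.990), Ttc30b (r = 0.989) and D17H6S53E (r = 0.982). D10Wsu102e was followed less closely, by Tstd1 (r = 0.901), Egln2 (r = 0.894) and Trmt12 (r = 0.892), and Tor1aip1 by Zbtb1 (r = 0.993), Zfp398 (r = 0.991) and Rb1cc1 (r = 0.989).

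With the DMSO mean of each line taken out, so that r describes the pattern of response, the torsin Tor1a (r = 0.964) came among the 3 genes most like Tor1aip2, after Ranbp3 (r = 0.973) and Ttc30b (r = 0.966). Those most like D10Wsu102e were Slc45a3 (r = 0.972), the mitochondrial carrier Ucp2 (r = 0.95) and the glycosyltransferase B3gnt7 (r = 0.942). For Tor1aip1 they were Herpud2 (r = 0.965), Elf1 (r = 0.964) and Nipal1 (r = 0.959). For Chst15 they were Aqp9 (r = 0.983), Rpl10l (r = 0.982) and Gpr142 (r = 0.962), which had 0 counts in XEN and under 3 CPM in TSC, so likeness there rests on few reads.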

How the data were processed

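The authors deposited 1 table of raw counts, whole numbers for each gene in each library, per the file headers and values. Per the submitters' processing notes, the authors used FastQC, Trim Galore, STAR, featureCounts and build GRCm39 (mm39), with no versions given; the labels' protocols name a stranded total RNA kit, and the counting's strand setting was not given in these sources. Gene names, models and neighbours came from GENCODE M21 on GRCm38, a different build, so no gene coordinates are printed; 3333 of 55416 identifiers had no name. Promoters came from RefSeq on GRCm38.p6.

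The main test was edgeR 4.0.16 (R 4.3.3) on 6 groups over the 14 libraries, with TMM scaling, filterByExpr (minimum count 10, minimum total 15) and a robust quasi-likelihood F test. A call is a two-sided Benjamini-Hochberg adjusted p under 0.05 over 18430 genes. Each SE was derived from F as the absolute log2 fold change divided by its square root. Log2 CPM used a prior count of 2. On simulated counts for the XEN comparison (18393 genes), 53.7% of genes changed by 1 and 70.7% of genes changed by 2 on the log2 scale were called.

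The 4 genes and the gene lists were chosen with earlier results of these data known; the box C/D list was added after the files were read. The RNA ligation list was drawn up for a role that D10Wsu102e is not known to have. Named were the 4 genes, list genes called in any line or with the smallest p, Tor1a, Tor1b, neighbours, the 3 most similar genes per pattern, Mettl3 and markers; Gm10584 and Sox17 were named after their values were seen. 1 result of the RNA ligation list is not reported here. Tried alternatives were DESeq2 1.42.0, RLE size factors, scaling to 77 ribosomal protein genes, no filter, a replicate block, fits of single lines and leaving out each library. In XEN, same-numbered libraries deviated together (Pearson r of deviations 0.220, 0.376 and 0.337 across genes), so there the numbers were taken to pair the samples. The main test did not use these pairs, so its XEN standard errors, p-values and calls ignore them. With the replicate number as a block, XEN calls went from 764 to 2448.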

Additional observations from a re-analysis of the deposited data

Results flagged for a closer look

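Some effects ran in opposite directions between lines, with every STM2457 library above every DMSO library in one line and below in EpiSC; these differences between lines were not tested, since they served to choose the genes. Chst15 was higher with STM2457 in XEN and TSC and lower in EpiSC, a log2 difference of 0.37 for XEN minus EpiSC and of 2.69 for TSC minus EpiSC. With scaling to ribosomal protein genes its EpiSC response was 0.03, so the opposite direction does not hold under that scaling. D10Wsu102e was higher with STM2457 in XEN and TSC and lower in EpiSC, a log2 difference of 1.17 for XEN minus EpiSC and of 0.29 for TSC minus EpiSC. The responses of Chst15 in EpiSC (-0.10 ± 0.108, SE) and of D10Wsu102e in TSC (0.07 ± 0.133) were smaller than their SE. With 2 libraries per arm in TSC and EpiSC, arms of an unchanged gene can also fail to overlap. The share of all tested genes without overlap was not counted.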

How the results depend on the processing

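Across the alternatives run, the responses of Tor1aip2 and of D10Wsu102e in XEN and of Chst15 in TSC kept their sign and stayed within the spread between replicates, except that leaving out 1 DMSO library of TSC moved the Chst15 response (2.26 without replicate 1, 3.01 without replicate 2). Depth limits that value, which rests on 8 DMSO counts.

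Scaling to ribosomal protein genes changed the most values. It turned D10Wsu102e in EpiSC minus XEN in DMSO to -0.65 and brought Tor1aip1 in EpiSC minus TSC past the threshold at 0.48. Responses became 0.68 (TSC) and 0.25 (EpiSC) for Tor1aip2, and 0.52 (TSC) and 0.33 (EpiSC) for Tor1aip1. XEN minus TSC became -2.50 for Chst15, 0.39 for Tor1aip2, 0.65 for D10Wsu102e and -0.42 for Tor1aip1, and XEN minus EpiSC 0.19, 0.81, 0.95 and -0.23 for the same genes. The range of line means with STM2457 and in DMSO became 8.19 and 10.0 for Chst15, 3.56 and 2.72 for Tor1aip2, 2.22 and 1.53 for D10Wsu102e, and 2.03 and 2.45 for Tor1aip1. The cause was not tested.

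Counts of called genes (764 in XEN, 178 in TSC, 309 in EpiSC) became 141, 79 and 127 with ribosomal scaling, 1573, 959 and 1160 with DESeq2, and 25, 4378 and 4321 with each line fitted alone. Without a filter they were 332 in TSC and 585 in EpiSC. Counts for XEN minus TSC, XEN minus EpiSC and TSC minus EpiSC became 0, 0 and 0 with ribosomal scaling, 19, 45 and 25 with DESeq2, and 9, 66 and 44 without a filter; with RLE size factors XEN minus EpiSC was 0. The replicate block, whose numbers paired samples only in XEN, gave 2448, 2036 and 2427 calls in XEN, TSC and EpiSC and 56, 179 and 111 for the differences; it changed no call on a DMSO level of the 4 genes.

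For the lists, in the order XEN, TSC and EpiSC, the block gave 8, 4 and 5 torsin calls, 9 chondroitin calls each in TSC and EpiSC, 2 and 6 RNA ligation calls in TSC and EpiSC, and 1 and 4 box C/D calls in XEN and TSC. DESeq2 gave 8, 6 and 4 torsin calls, 9 chondroitin calls in TSC, 3 and 3 RNA ligation calls in TSC and EpiSC, and 1 box C/D call in TSC. Ribosomal scaling left 1 torsin call in XEN, 1, 1 and 2 chondroitin calls, 0 RNA ligation calls in XEN and 0 box C/D calls in EpiSC. Without a filter RNA ligation in XEN had 1 and box C/D in EpiSC had 1.

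Leaving out 1 library at a time gave 414 to 1048 calls in XEN (fewest without XEN DMSO replicate 3), 3 to 478 in TSC (fewest without TSC DMSO replicate 1) and 7 to 784 in EpiSC (fewest without EpiSC DMSO replicate 2). It gave 0 to 1 for XEN minus TSC, 0 to 4 for XEN minus EpiSC and 0 to 2 for TSC minus EpiSC. Chst15 ran from 2.26 to 3.01 in TSC, from -2.74 to -1.997 for XEN minus TSC and from 2.37 to 3.12 for TSC minus EpiSC. D10Wsu102e in DMSO ran from -0.56 to -0.35 for TSC minus XEN and from 0.078 to 0.28 for EpiSC minus XEN. Torsin calls ran from 4 to 5, 0 to 1 and 0 to 1, chondroitin calls from 6 to 9, 0 to 4 and 0 to 6, RNA ligation calls from 0 to 2, 0 to 1 and 0 to 0, and box C/D calls from 0 to 1, 0 to 0 and 0 to 2, each in the order XEN, TSC and EpiSC. Where an arm was left with 1 library, that library is assumed to vary like the other groups.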
